A study of Bos taurus with 6 samples.

Results

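The genes described here encode the hyaluronan-rich matrix that granulosa cells build around the time of ovulation. They were chosen by gene symbol, as all rows of the deposited table whose symbol is PTX3, TNFAIP6, HAS1, HAS2, HAS3, VCAN, ADAMTS1, CD44 or HAPLN1. Each of these 9 symbols has 1 transcript cluster, which is how the array groups the probes of a gene, so 9 of the 26773 transcript clusters of the table were used. The members were listed with earlier results of these data known, so their counts describe the list and were not read as a test of it.

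The arrays measured RNA from 6 cultures of primary bovine granulosa cells (GC). The normal density group and the high density group held 3 cultures each, and a high density well received 10 times the normal number of cells. Every culture grew for 9 days on collagen in a serum-free medium with insulin, to which FSH (20 ng/ml), an IGF-1 analog (50 ng/ml) and androstenedione (2 μM) were added. LH is not listed among the additions, and the comparison asks how plating density changes these transcripts. The cells were cryopreserved pools from small to medium follicles of abattoir ovaries, from many cows of undefined cyclicity.

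In the ovulatory follicle, the LH surge leads cumulus and mural GC to produce hyaluronan, a long unsulfated sugar chain spun out by synthases in the plasma membrane. The protein TSG-6, encoded by TNFAIP6, transfers heavy chains of the inter-alpha-trypsin inhibitor onto hyaluronan, and the pentraxin PTX3 binds these heavy chains and holds the strands together. Versican (VCAN) is a large proteoglycan that binds hyaluronan and is stabilized there by link protein (HAPLN1), the protease ADAMTS1 cleaves versican, and CD44 is a receptor by which cells hold on to hyaluronan.

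Sequences were used here for PTX3 only. The primers below are those with which the study measured it by qPCR, and they are shown because they name the same mRNA accession as the PTX3 transcript cluster of the array. The qPCR values themselves were not analysed here.
PTX3 forward primer: tttgtgcgctctggtctgcagtgt
PTX3 reverse primer: catggtgaagagcttgtcccactcg
The forward primer has 24 bases, of which 13 are G or C, and the reverse primer has 25 bases, of which 14 are G or C.

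At high density 4 members were up-regulated. These were PTX3, CD44, ADAMTS1 and, with signals at the low end of the array, HAS2. TNFAIP6, VCAN, HAS1, HAS3 and HAPLN1 did not pass the thresholds, which were those of the study, an FC above 1.5 in size with a p-value and FDR below 0.05. No member was down-regulated. By FDR alone 5 members passed, HAPLN1 being the fifth, as did 19.1% of the table. Of all 26773 transcript clusters 3.97% were called up-regulated and 3.51% down-regulated by the same test (limma with Benjamini-Hochberg adjustment over the table). The median log2 change, high minus normal density, was 0.56 over the members and 0.02 over the table. In 7 members the 3 high density cultures lay entirely above the 3 normal density cultures, while groups without overlap were found for 37.3% of the table and those with the higher signals at high density for 17.8%.

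Signals are log2 values made by the authors with RMA, so a difference of 1 is a doubling. The 95th percentile of the reporter control rows, 4.62, was taken as the background level, and 48.8% of the transcript clusters had a group mean above it. PTX3, TNFAIP6, VCAN, ADAMTS1 and CD44 were above it in all 6 cultures, and HAS1, HAS2, HAS3 and HAPLN1 were below it in all 6. For the latter, the size of a change is limited by the background. High density replicate 2 stood apart from the other arrays, with the lowest of limma's array weights (0.289, the others lying between 0.824 and 1.66). Without it 2434 transcript clusters of the table were called in place of 2005, and PTX3, CD44, ADAMTS1 and HAS2 were the 4 members called.

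**Figure D1:**
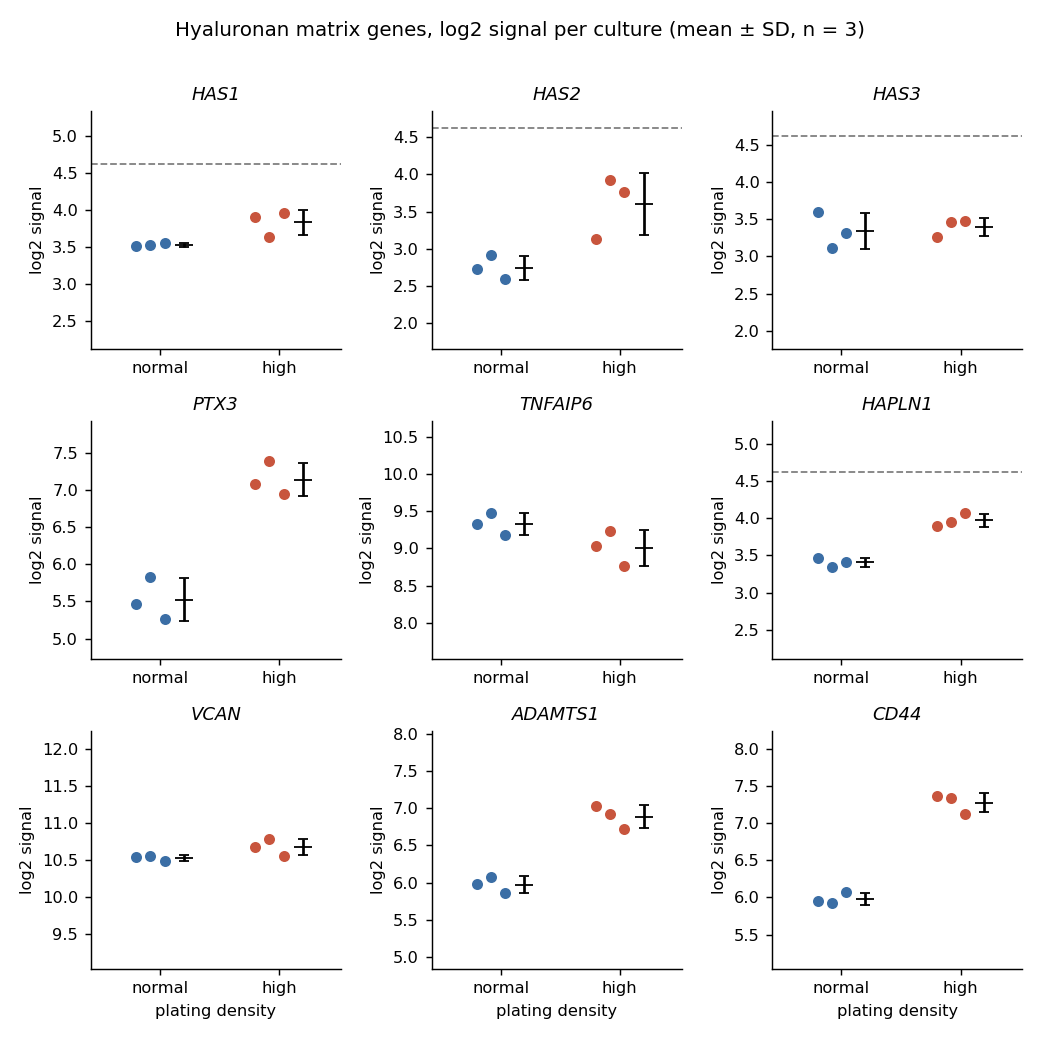
Log2 signal (vertical axis) of each hyaluronan matrix gene in the normal density (blue) and high density (red) cultures, each point being 1 culture and the black bar the mean ± SD (n = 3), with the background level of 4.62 as a dashed line where it falls into the panel. All panels span the same log2 range, and the separation of the groups is widest for PTX3 and CD44, while TNFAIP6 and HAS3 overlap.

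PTX3 (transcript cluster 12686574) had log2 signals of 5.47, 5.83 and 5.27 in normal density replicates 1, 2 and 3, and of 7.07, 7.39 and 6.95 in high density replicates 1, 2 and 3. The lowest high density culture was 1.12 above the highest normal density culture. The means were 5.52 ± 0.29 and 7.14 ± 0.23 (SD, n = 3), an FC of 3.06 with a 95% interval from 2.34 to 4.02. On the log2 scale the rise was 1.61 with a standard error of 0.17 (adjusted p = 7.26e-04 in limma), which took rank 145 among the rises of the table.

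TNFAIP6 (12780587), whose product acts on the same heavy chains as PTX3, was measured far above the background level at both densities. Its log2 signals were 9.33, 9.47 and 9.18 in the normal density replicates and 9.03, 9.23 and 8.76 in the high density replicates. The groups overlapped, since high density replicate 2 exceeded normal density replicate 3. The difference was −0.32 on the log2 scale with a standard error of 0.13 (adjusted p = 0.151 in limma). Its 95% interval ran from −0.63 to −0.0031, so a rise like that of PTX3 lay outside the interval. The value depended on single cultures. It was −0.19 without high density replicate 3 (adjusted p = 0.358 in limma) and −0.43 without high density replicate 2 (0.0462), and −0.44 with array weights (0.0310). The last 2 of these passed the FDR threshold but not the FC threshold. Within the arrays the change of PTX3 exceeded that of TNFAIP6 by 1.93 (standard error 0.09), and each high density culture showed a difference of 1.85 to 1.998 against the normal density mean. This pair, and those of ADAMTS1 with VCAN and CD44 with LYVE1 below, were set side by side after their values were known and were not tested.

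HAPLN1 (12883172), the link protein, had log2 signals of 3.47, 3.35 and 3.41 at normal density and of 3.90, 3.95 and 4.07 at high density. All high density cultures were above all normal density cultures, by 0.43 or more, but every value was below the background level. With an FC of 1.48 (0.56 on the log2 scale, SE 0.08, adjusted p = 0.00237 in limma) it missed the FC threshold narrowly while passing the FDR threshold. HAPLN1 was called, with a log2 change of 0.60, when the arrays were weighted by quality or when high density replicate 1 was left out, and with 0.59 without normal density replicate 1.

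For VCAN (12877198), the proteoglycan, the log2 signals were 10.55, 10.55 and 10.49 at normal density and 10.68, 10.79 and 10.56 at high density. The groups were separated by only 0.01. The difference of 0.15 on the log2 scale (SE 0.08, adjusted p = 0.249 in limma) had a 95% interval from −0.04 to 0.34, which corresponds to an FC between 0.974 and 1.26 and leaves out the FC threshold in either direction. Without high density replicate 2 the difference was 0.093 (adjusted p = 0.347 in limma). In the RefSeq gene table of the assembly ARS-UCD2.0, VCAN and HAPLN1 are direct neighbours, with 0 protein-coding genes starting between them.

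ADAMTS1 (12680034), the protease that cleaves versican, was up-regulated. Its log2 signals were 5.98, 6.08 and 5.85 in the normal density replicates and 7.03, 6.92 and 6.72 in the high density replicates, so that the groups were 0.64 apart. The FC was 1.89. On the log2 scale the rise was 0.92 with a 95% interval from 0.68 to 1.16 (SE 0.10, adjusted p = 0.001 in limma). Its change exceeded that of its substrate VCAN within the arrays by 0.77 (standard error 0.08), and by 0.69 to 0.90 in the single high density cultures.

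CD44 (12726663), the hyaluronan receptor, had the smallest p-value of the members. Log2 signals were 5.95, 5.92 and 6.07 at normal density and 7.36, 7.33 and 7.12 at high density, with a gap of 1.05 between the groups. The FC was 2.45 with a 95% interval from 2.12 to 2.83 (1.29 on the log2 scale, SE 0.09, adjusted p = 1.30e-04 in limma). RefSeq lists 16 transcripts for CD44, and the single transcript cluster does not tell its splice forms apart.

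**Figure D2:**
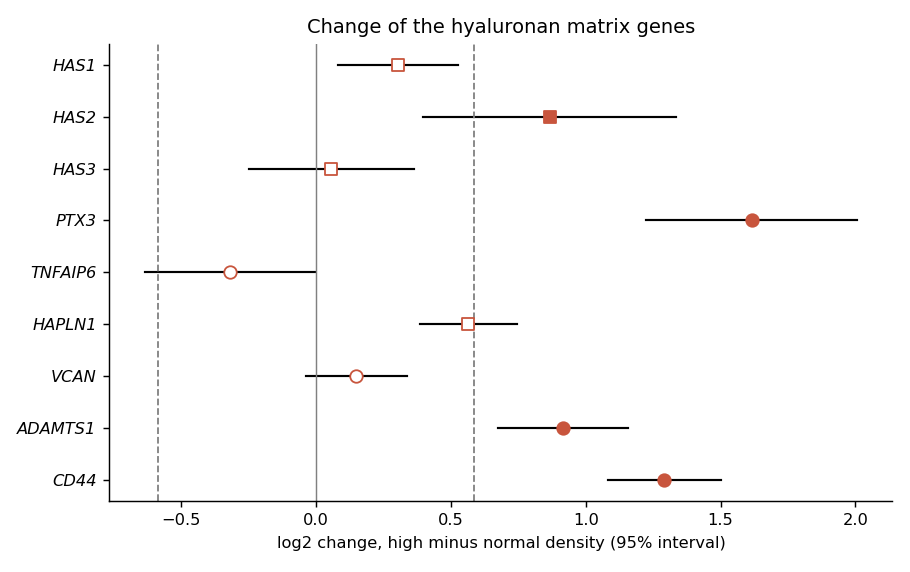
Log2 change, high minus normal density, of each hyaluronan matrix gene (horizontal axis) with its 95% interval from limma, filled where called and as a square where all 6 signals lay below the background level. Dashed lines mark an FC of 1.5 in either direction, and the intervals of PTX3, CD44 and ADAMTS1 lie entirely beyond it.

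The 3 hyaluronan synthases, which differ in the length of chain they make and in regulation, were all below the background level in all cultures. HAS2, the synthase best known from cumulus expansion, had log2 signals of 2.72, 2.91 and 2.59 at normal density and of 3.13, 3.92 and 3.77 at high density (12721596). The groups did not overlap, by 0.22, and the high density cultures spread widely, with an SD of 0.42 against 0.16 at normal density. HAS2 was called with a rise of 0.87 on the log2 scale (SE 0.20, adjusted p = 0.0229 in limma), an FC of 1.82 with a 95% interval from 1.32 to 2.53. The call of HAS2 was lost with the methods' t-test (adjusted p = 0.123), a test per transcript cluster that replaces the analysis of variance that the study ran in its array software. It called 3 members and 6.02% of the table. The call was also lost without normal density replicate 1 (limma's adjusted p = 0.0739), normal density replicate 3 (0.0847) or high density replicate 3 (0.0777).

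HAS1 (12755898) had log2 signals of 3.51, 3.53 and 3.55 at normal density and of 3.91, 3.64 and 3.96 at high density. High density replicate 2 was only 0.09 above the normal density cultures. The difference of 0.30 on the log2 scale (SE 0.10) had a 95% interval from 0.08 to 0.53 and missed the FDR threshold with limma's adjusted p = 0.0668. HAS1 passed that threshold, but not the FC threshold, without high density replicate 2 (0.40, adjusted p = 0.00602) and with array weights (0.38, adjusted p = 0.00721).

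HAS3 (12749590) had log2 signals of 3.60, 3.12 and 3.31 at normal density and of 3.26, 3.46 and 3.48 at high density, and the groups overlapped. The difference was 0.056 on the log2 scale (SE 0.13, adjusted p = 0.810 in limma) with a 95% interval from −0.25 to 0.36, and its sign turned when normal density replicate 2 was left out.

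**Figure D3:**
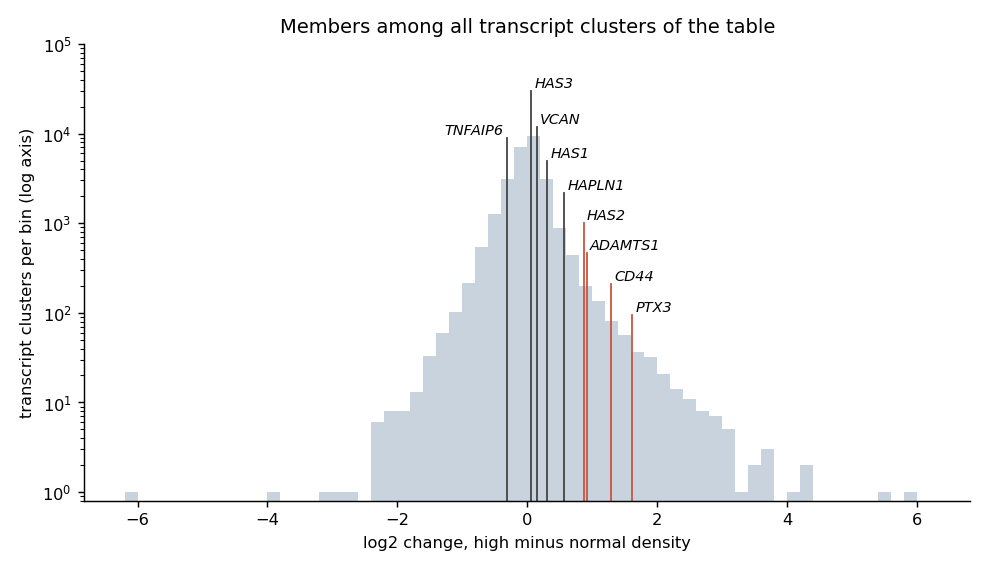
Number of transcript clusters (vertical log axis) by log2 change, high minus normal density (horizontal axis, bins of 0.2), over all 26773 transcript clusters of the table, with the hyaluronan matrix genes as vertical lines, red where called. The heights of the lines only separate the names. PTX3 at 1.61 and CD44 at 1.29 lie in the upper tail, and TNFAIP6 at −0.32 is the only member left of 0.

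Related genes were taken from 10 lists written from general knowledge. The lists cover hyaluronan synthesis, breakdown and binding, relatives and partners of the members, and ovulatory genes that act upstream of the matrix. Together they held 70 symbols of which 66 were found in the table, with 68 transcript clusters. Of these 9 were up-regulated, 2 down-regulated and 57 not called, which is 16.2% called against 7.49% of the table. The median log2 change was 0.11. A further 7 passed the FDR threshold with an FC below 1.5, namely UAP1, UGP2, HYAL2, CEMIP, FBLN2, ADAMTS9 and NRIP1. With only signals above the background level, 10 of 42 related transcript clusters were called, against 1695 of 13077 in the table. These lists too were chosen with earlier results of these data known, so their counts were not read as a test. CEMIP, AREG and CTSL were read under the older names KIAA1199, AREGB and CTSL1 that the table uses. HYAL3, HYAL4, NPTXR and CEBPB were not analysed here.

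The precursors of hyaluronan, UDP-glucuronic acid and UDP-N-acetylglucosamine, are made from glucose by a short series of enzymes. All 11 transcript clusters of this group were above the background level in all cultures, and 1 was called. This was the hexokinase HK2, which starts the use of glucose and rose from 8.62 ± 0.05 to 9.97 ± 0.04 (SD, n = 3), a log2 change of 1.36 (limma's adjusted p = 3.43e-05). The other 10 had log2 changes between −0.27 and 0.37. UAP1 and UGP2, which make UDP-N-acetylglucosamine and UDP-glucose, passed the FDR threshold below the FC threshold, with 0.37 (limma's adjusted p = 0.0388) and 0.30 (0.0441), and in both the high density cultures lay above the normal density cultures. Those that passed neither included UGDH, the enzyme that makes UDP-glucuronic acid, with 0.195, and the amidotransferases GFPT1 with 0.012 and GFPT2 with 0.11.

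None of the 8 transcript clusters for hyaluronan breakdown was called, and their log2 changes lay between −0.34 and 0.24, with 2 at an adjusted p below the FDR threshold. These were HYAL2, a membrane-bound hyaluronidase, with −0.34 (limma's adjusted p = 0.0474) and CEMIP, which is needed for hyaluronan depolymerization in fibroblasts, with −0.34 (0.0277). The mean CEMIP signal of 10.48 ± 0.05 at normal density compares with 10.14 ± 0.12 in the high density cultures (SD, n = 3). The groups did not overlap, but the difference stayed below the FC threshold.

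Among the other hyaluronan receptors, LYVE1 and HMMR were down-regulated and the remaining 5 were not called. LYVE1, best known from lymphatic endothelium and close to CD44 in its hyaluronan-binding domain, had log2 signals of 7.38, 7.46 and 7.59 at normal density and of 6.06, 6.23 and 6.46 at high density. The log2 change was −1.23 (limma's adjusted p = 4.61e-04). HMMR, a receptor that is also a mitotic spindle protein, fell from 5.84, 5.92 and 6.02 at normal density to 4.85, 5.06 and 5.08 at high density, a log2 change of −0.93 (limma's adjusted p = 5.38e-04). The changes of CD44 and LYVE1 differed by 2.52 within the arrays (standard error 0.19). STAB1, STAB2, LAYN, TLR2 and TLR4 had group means below the background level at both densities.

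**Figure D4:**
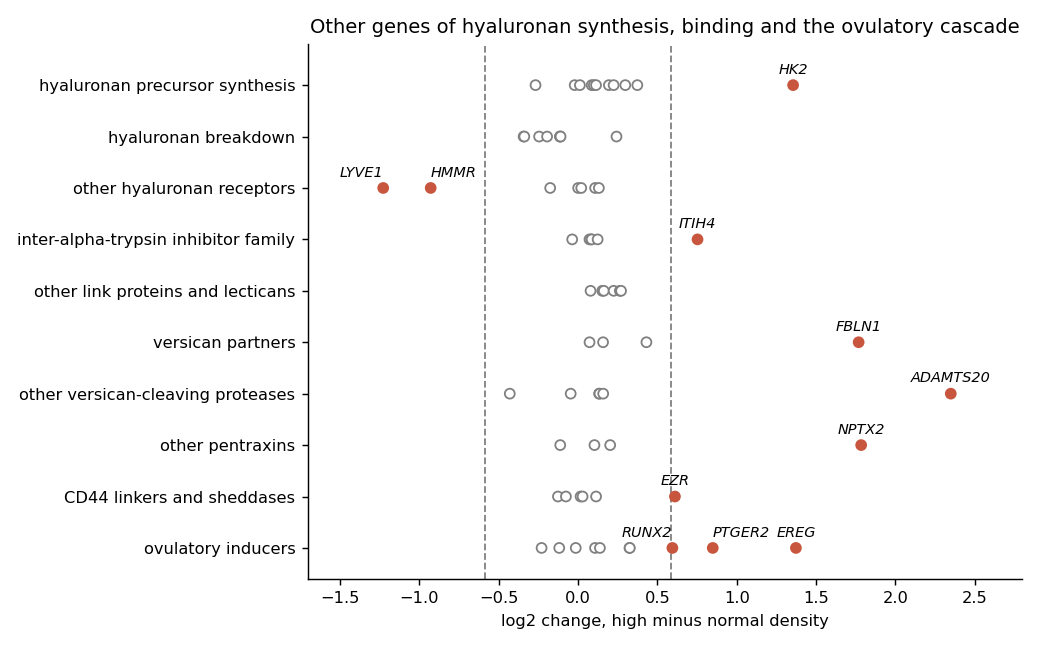
Log2 change, high minus normal density (horizontal axis), of each transcript cluster in the 10 lists of related genes (vertical axis), filled and named where called. Dashed lines mark an FC of 1.5 in either direction. The largest rise is that of ADAMTS20 at 2.35 and the largest fall that of LYVE1 at −1.23.

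The inter-alpha-trypsin inhibitor heavy chains, which TSG-6 and PTX3 act on, come largely from blood plasma. The list holds the wider inter-alpha-trypsin inhibitor family, not only chains that TSG-6 and PTX3 act on. Of its 6 transcript clusters 5 had means below the background level at both densities, among them ITIH1, ITIH2 and ITIH3. ITIH4 rose with a log2 change of 0.75 (limma's adjusted p = 0.00361), from 3.89 to 4.65, which is just above the background level. None of the 6 other link proteins and lecticans, including aggrecan (ACAN), was called.

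Of the versican partners FBLN1, a secreted glycoprotein that binds the C-terminal domain of versican, rose. Its log2 signals were 7.66, 7.57 and 7.39 at normal density and 9.36, 9.16 and 9.40 at high density, a log2 change of 1.77 (limma's adjusted p = 5.81e-05). FBLN2, FBN1 and TNR were not called, with log2 changes of 0.43, 0.16 and 0.07, of which FBLN2 passed the FDR threshold (limma's adjusted p = 0.0133). Of the other proteases that cleave versican, ADAMTS20 rose from 3.23, 3.29 and 3.23 to 5.58, 5.72 and 5.50, a log2 change of 2.35 (limma's adjusted p = 1.07e-05). Since its normal density signals did not reach the background level, this value is limited by it. ADAMTS4, ADAMTS5, ADAMTS8, ADAMTS9 and ADAMTS15 had log2 changes between −0.43 and 0.16 and were not called, ADAMTS9 with −0.43 passing the FDR threshold (limma's adjusted p = 0.0281).

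NPTX2, a neuronal pentraxin that shares the pentraxin domain with PTX3, had log2 signals of 5.53, 5.69 and 5.38 at normal density and of 7.55, 7.14 and 7.26 at high density. Its log2 change was 1.78 (limma's adjusted p = 1.47e-04), while the short pentraxins CRP and APCS and the neuronal NPTX1 had group means below the background level and were not called. Of the proteins that link CD44 to actin or cut it from the cell surface, ezrin (EZR) was called with a log2 change of 0.61 (limma's adjusted p = 0.00112), just above the FC threshold. This call was lost without high density replicate 3 (0.57) and after the array medians were made equal (0.57). The log2 changes of RDX, MSN, ADAM10, ADAM17 and MMP14 lay between −0.13 and 0.11.

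Genes that in the follicle act upstream of the matrix formed the last list, and 3 of its 10 transcript clusters were called. Epiregulin (EREG), an EGF-like factor that passes the LH signal on to cumulus cells, had log2 signals of 6.23, 6.04 and 5.71 at normal density and of 7.36, 7.39 and 7.35 at high density, a log2 change of 1.37 (limma's adjusted p = 4.53e-04). The prostaglandin E receptor PTGER2 was called with 0.85 (limma's adjusted p = 7.71e-04), but both group means were below the background level. The transcription factor RUNX2 was called with 0.59 (limma's adjusted p = 0.00266). The call of RUNX2 was lost without high density replicate 1 (0.54), without normal density replicates 2 (0.57) or 3 (0.58), and after the array medians were made equal (0.55). PTGS2, the enzyme of prostaglandin synthesis, had a log2 change of 0.33 (limma's adjusted p = 0.0939) and the progesterone receptor PGR of 0.14. The corepressor NRIP1 passed the FDR threshold below the FC threshold, with −0.23 (limma's adjusted p = 0.0460). The amphiregulin signal lay below the background level in all cultures.

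**Figure D5:**
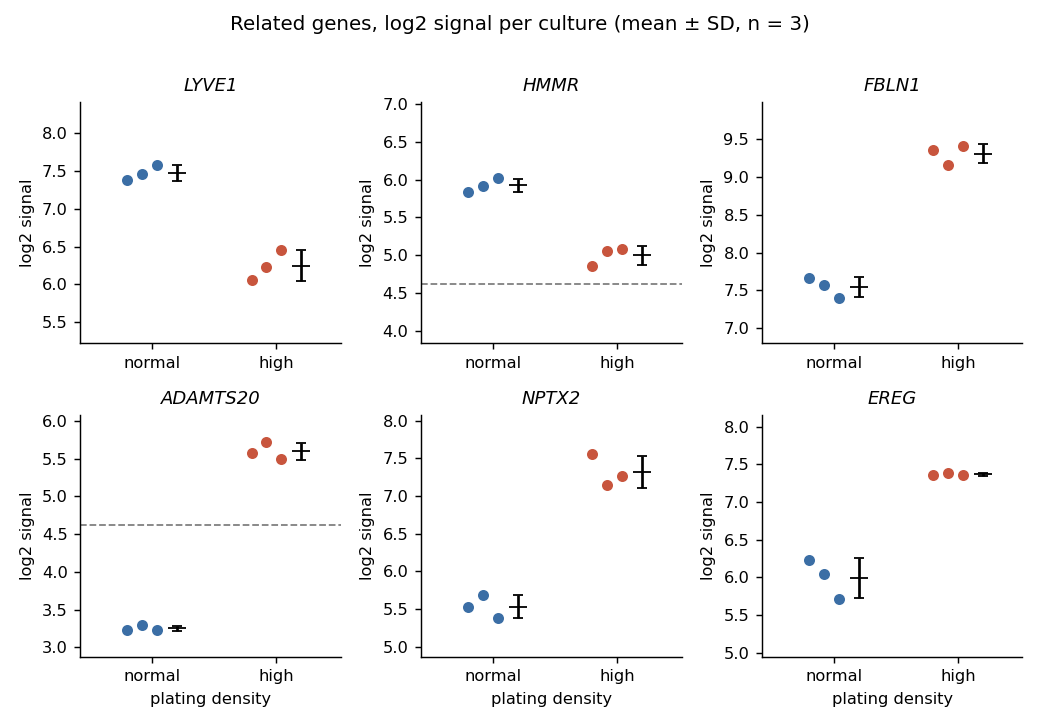
Log2 signal (vertical axis) per culture of 6 related genes at normal (blue) and high (red) density, with the mean ± SD (n = 3) as black bars and the background level of 4.62 as a dashed line where it falls into the panel. In each panel the 3 high density cultures lie on 1 side of the 3 normal density cultures, below them for LYVE1 and HMMR and above them for FBLN1, ADAMTS20, NPTX2 and EREG.

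The labelled cell type was checked with marker lists. All 11 granulosa markers had a group mean above the background level. At high density 6 of them were down-regulated, among them FSHR, INHA and CYP19A1, whose high density mean of 3.71 was below that level. HSD17B1 was up-regulated, and the other 4 missed the FC threshold. Of these, NR5A2 (0.41 on the log2 scale, limma's adjusted p = 0.00482) and CYP11A1 (0.26, 0.0294) passed the FDR threshold. NR5A1 changed by −0.28 and AMH by −0.18. The summed signal of the granulosa list, as log2, was between 12.48 and 12.6 at normal and between 12.18 and 12.24 at high density. All 9 leukocyte markers and all 7 oocyte markers were at or below the background level at both densities, as were 6 of 7 endothelial markers, VWF being the exception. Of 6 surface epithelium markers 2 were above it, and none of the leukocyte, oocyte, endothelial or surface epithelium markers was called. Of 5 theca markers 3 had a group mean above the background level. CYP17A1, the defining one, was at 2.93 and 2.92, and INSL3 rose by 1.82 on the log2 scale. LHCGR fell from 4.04 to 2.84, below the background level throughout. The study followed LHCGR as a transcript of GC, so it does not mark theca cells alone. STAR changed by −0.49 (limma's adjusted p = 0.0105) and COL1A2 by 0.38 (0.0165), and both missed the FC threshold. The summed signal of the theca list, as log2, was between 9.59 and 9.64 at normal and between 9.90 and 10.1 at high density. This sum includes STAR, which had the highest normal density mean of the list (9.03). Of 6 fibroblast and stroma markers 5 were above the background level in all cultures, and COL1A1 rose by 1.15 and THY1 by 1.71 on the log2 scale. The other 4 were not called, with log2 changes of 0.32 for PDGFRA, 0.17 for DCN, 0.01 for LUM and −0.02 for FAP. The summed signal of this stroma list, as log2, ranged from 12.3 to 12.34 at normal density and from 12.43 to 12.46 at high density. Which part the granulosa, theca or stroma lists had in the changes of the matrix genes was not tested. In RNA from whole cultures, fewer cells of a type and less RNA per cell cannot be told apart.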

How the data were processed

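Total RNA of each GC culture was measured on 1 bovine whole-transcript array (6 in all). The authors ran RMA in Expression Console (background reduction, normalization, gene-level summary), and the deposited table holds log2 signals, which were used without further scaling. It lists 26773 transcript clusters, including 82 reporter control rows, and 0 columns of other samples. Array medians were between 4.34 and 4.43. The genome build was not given in the sources used here.

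The comparison of high with normal density used R 4.3.3 and limma 3.58.1 without covariates (lmFit, eBayes), two-sided, and p-values were adjusted after Benjamini-Hochberg over the whole table. The named genes are all members, the called genes of each list up to 6 a list, defining markers, and the 3 genes most like each called member. Other genes named from the lists were chosen after their values were seen. The members and lists were chosen with earlier results of these data known. Alternatives were a t-test per transcript cluster (the methods' t-test, standing in for the ANOVA that the methods name), trend and robust variances, array weights, a replicate block, other scalings, a filter at the background level, removal of control rows, no FC minimum, and leaving out each culture. The script was also run on simulated signals with independent noise and planted changes well above the FC threshold. That run checked the code and does not bear on calls near the threshold. Replicates were pools of many cows, and whether 2 cultures shared a pool is not stated, so p-values measure the spread between these cultures. The number of arrays limits the precision. Figures were drawn with matplotlib 3.10.9. Sequences of the other members, the qPCR and the hormone data were not analysed here.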

Additional observations from a re-analysis of the deposited data

How the results depend on the processing

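PTX3, CD44 and ADAMTS1 were called in all 14 alternatives, with log2 changes between 1.49 and 1.77, 1.24 and 1.37, and 0.85 and 1.003. TNFAIP6 (−0.44 to −0.19) and VCAN (0.092 to 0.21) were called in none of 14 and HAS1 (0.24 to 0.40) in none of 13, although TNFAIP6 and HAS1 passed the FDR threshold with array weights and without high density replicate 2. HAS2 was not called by the methods' t-test (log2 change 0.87), and with each culture left out its change was between 0.71 and 1.10. That of HAPLN1 was 0.60 with array weights, where it was called, and 0.52 to 0.60 when single cultures were omitted. That of HAS3 was between −0.055, without normal density replicate 2, and 0.18. The members called numbered 3 to 5. With no FC minimum 18 related transcript clusters were called in place of 11, and 5106 in place of 2005 over the table, and 10 to 11 related ones with each culture left out. The filter at the background level removed HAS1, HAS2, HAS3 and HAPLN1, so it gave no value for them. The replicate number as a block gave 2020 calls over the table, and 4 members were called. With the block, limma's adjusted p was lower for PTX3 (3.55e-04), TNFAIP6 (0.0577) and HAS2 (0.0186), and higher for the other members. Over the table as a whole no pairing of the cultures by number was seen. Single genes may differ from this, and whether same-numbered cultures shared a pool is not stated. The deviations from the group means correlated between same-numbered cultures with 0.05, −0.05 and −0.04, and 2 of 6 cultures correlated best with their own number. Signals below the background level limit what these arrays show of HAS1, HAS2, HAS3 and HAPLN1.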

Other observations

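For each called member, the transcript clusters with the most similar log2 signals over the 6 arrays were listed by Pearson's r. Since the arrays fall into 2 density groups, r mostly follows the density difference and is given as a description. For PTX3 the closest were PRDM1 (r = 0.999), SEMA3C (0.998) and LANCL3 (0.997), with log2 changes of 0.72, 0.72 and 1.06, and 925 transcript clusters had an r of at least 0.95. For CD44 they were MAN1C1 (0.9995), NCEH1 (0.999) and RNF19B (0.999), and 1154 transcript clusters reached 0.95. For ADAMTS1 they were B4GALT5 (0.997), SPOCK2, which encodes an extracellular matrix proteoglycan (0.996), and LOC616942 (0.996), of 1000 that reached 0.95. For HAS2 they were CACNA2D3 (0.991), DPH3 (0.989) and ZCCHC7 (0.989), and only 123 reached 0.95. DPH3, ZCCHC7, B4GALT5 and NCEH1 were not called, with log2 changes of 0.14, 0.16, 0.41 and 0.41. Both group means of PRDM1 (2.78 and 3.50) and of CACNA2D3 (2.88 and 3.49) were below the background level. The normal density means of LANCL3 (3.58) and LOC616942 (4.22) were below it too.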
